A study of Mus musculus with 5480 samples.

Results

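Decorin (Dcn), lumican (Lum), biglycan (Bgn), asporin (Aspn), osteoglycin (Ogn), fibromodulin (Fmod), Prelp and podocan (Podn), which are small leucine-rich proteoglycans, were examined together with the large proteoglycan versican (Vcan) in mesenchymal cells of the neonatal mouse lung. These 9 genes were chosen by name from the 18072 genes of the count table, and all 9 were found in it. Reads were counted in 5480 single cells sorted from distal lung, each of which the authors had given 1 of 16 subtype labels. The cells came from 10 mice, 1 female and 1 male in each of 5 groups. Mice kept in normal air were taken on embryonic day 18.5 (E18.5), on the day after birth (P1), and at postnatal day 7 (P7) or 21 (P21), and further mice at P7 after hyperoxia, that is, air enriched in oxygen. No strain, allele, oxygen level or exposure time is given in the sources used here. With 2 mice a group, p-values rest on the spread between few animals, and each group's female and male value is given, in that order.

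Small leucine-rich proteoglycans are secreted proteins whose curved repeat domain binds collagen fibrils, and they set how thick the fibrils grow and how they are spaced. Decorin and biglycan carry chondroitin or dermatan sulfate chains, lumican and fibromodulin carry keratan sulfate, and asporin has a stretch of aspartic acids and binds calcium. Versican is a large chondroitin sulfate proteoglycan that binds hyaluronan, a long sugar polymer, and fills the loose, hydrated matrix of developing organs. In the lung this matrix is laid down by fibroblasts, by the smooth muscle of airways and vessels, and by pericytes, the cells wrapped around capillaries.

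Several members lie side by side in the genome. In the GENCODE M21 gene models, Dcn and Lum are neighbouring coding genes on chromosome 10, Fmod and Prelp are neighbours on chromosome 1, and Omd alone separates Aspn from Ogn on chromosome 13. Vcan is also on chromosome 13, next to the link protein gene Hapln1, while Podn is on chromosome 4 and Bgn on X. The RefSeq promoter table (build GRCm38.p6) had entries for 7 of the 9 members, and none for Dcn or Lum. The 150 bases before the start site are shown for Ogn, Prelp and Vcan, which each changed in airway muscle between P7 and P21, and for Bgn, the member read in most cell types. Capitals mark matches to 4 motifs searched on both strands: the TATA box (TATAAA), the CCAAT box (CCAAT), the GC box (GGGCGG) and the AP-1 site (TGANTCA).
Ogn, chr13:49607865-49608014, plus strand: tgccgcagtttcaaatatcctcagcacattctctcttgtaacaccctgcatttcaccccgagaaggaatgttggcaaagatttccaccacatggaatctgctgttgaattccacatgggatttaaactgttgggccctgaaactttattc
Prelp, chr1:133921402-133921551, minus strand: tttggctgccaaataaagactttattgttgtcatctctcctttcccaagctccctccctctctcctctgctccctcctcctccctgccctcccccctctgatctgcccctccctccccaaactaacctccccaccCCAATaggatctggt
Vcan, chr13:89742513-89742662, minus strand: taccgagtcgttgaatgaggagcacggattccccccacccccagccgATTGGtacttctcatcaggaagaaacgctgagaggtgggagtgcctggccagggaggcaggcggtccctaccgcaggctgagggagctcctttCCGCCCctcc
Bgn, chrX:73483451-73483600, plus strand: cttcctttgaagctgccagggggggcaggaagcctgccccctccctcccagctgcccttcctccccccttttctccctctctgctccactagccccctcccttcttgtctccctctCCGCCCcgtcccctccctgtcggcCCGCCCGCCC
No match was found in the Ogn window, which was 44.0% G and C. The Prelp window held 1 CCAAT box. The Vcan window held 1 CCAAT box and 1 GC box, and the Bgn window, at 70.0% G and C, held 3 GC boxes. Among all 32851 promoter windows of this length, 24.5% held a CCAAT box, 28.6% a GC box, 7.57% a TATA box and 4.24% an AP-1 site. No motif was found in all 4 windows, and a match is only a match of letters.

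The mice gave 311 to 633 cells and 294154721 to 671766116 reads each. The depth of a cell ranged from 39358 to 5177020 reads (median 774305). Levels are CPM, the reads of a gene summed over the cells of a mouse and label and scaled by the total of that sum to a common size, and 64 such sums held at least 10 cells. No molecular identifiers are named, so reads copied from 1 molecule count separately. The sorted cells carried mesenchymal markers: the summed level of Col1a1, Col1a2, Col3a1, Pdgfra and Pdgfrb lay between 2532.8 and 53149.9 CPM in every label except striated muscle, where it was 140.9 CPM. The subtype labels had been made from the expression of the same cells, so levels between labels are given as a description, with no test. Apart from a few cells, the 2 hyperoxia mice had separate sequencing runs, so run and hyperoxia cannot be told apart, whereas nearly all cells of the 4 normal-air males came from 1 run.

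**Figure D1:**
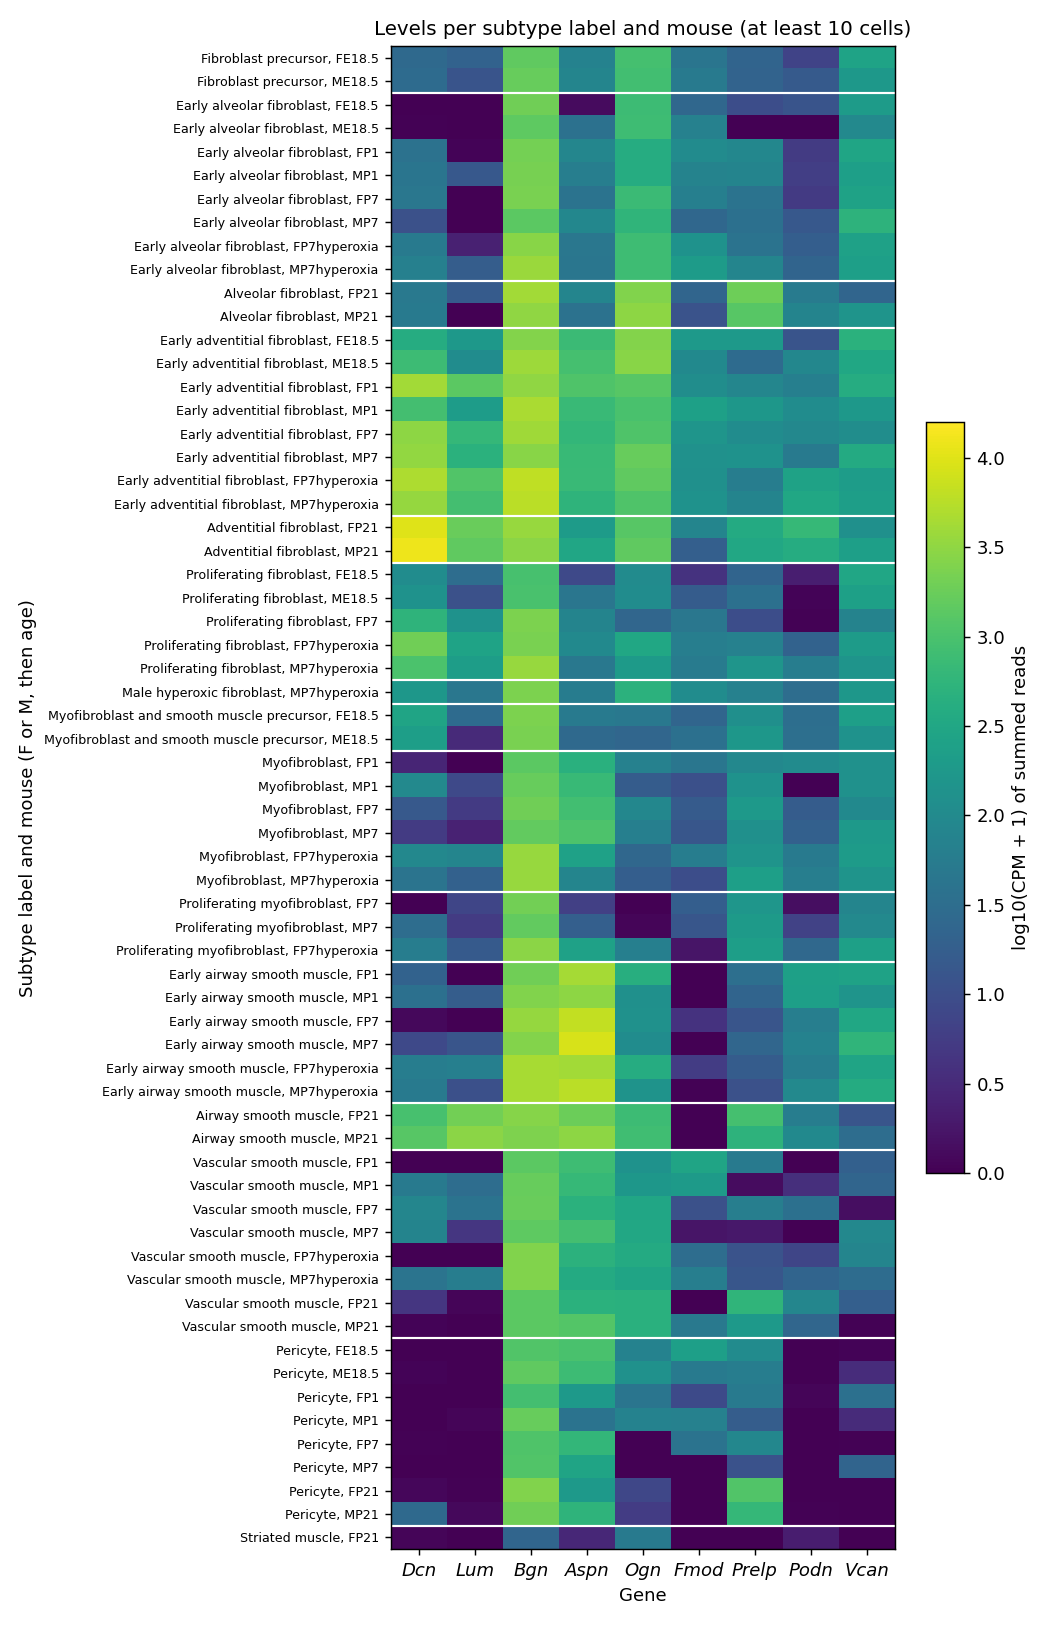
Levels of the 9 genes (columns) in each subtype label and mouse with at least 10 cells (rows), as log10(CPM + 1) of the summed reads. Bgn is bright in nearly all rows, Dcn and Lum in adventitial fibroblasts and, at P21, airway smooth muscle, and Aspn in airway smooth muscle.

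Each member had its own pattern over the cell types. Dcn, which binds collagen fibrils and growth factors of the TGF-beta family, was from birth on a gene mainly of adventitial fibroblasts, the cells of the sleeves around vessels and airways. It was read at 3102.1 and 3329.8 CPM in early adventitial fibroblasts at P7 and at 9931.8 and 12410.7 CPM in adventitial fibroblasts at P21. The next highest label at P21 was airway smooth muscle with 955.6 and 1282.2 CPM, and its range did not overlap that of the adventitial cells. Alveolar fibroblasts, the cells of the gas-exchange walls, were low in Dcn at 48.49 and 50.04 CPM. When the CPM of single cells were summed, adventitial fibroblasts gave 86.2 and 92.2% of all Dcn signal at P7 and 96.4 and 92.3% at P21, from 8.25 and 9.83% of the cells at P7 and 30.7 and 27.7% at P21. At E18.5 they gave 19.9 and 40.1% of it, and the precursors of myofibroblasts and smooth muscle, at 281.6 and 226.1 CPM, gave 49.5 and 34.8%.

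Lum, its chromosomal neighbour, had its highest level in early adventitial fibroblasts at E18.5, P1 and P7, as Dcn did. At E18.5 the other sources differed: fibroblast precursors gave 41.9 and 47.8% of the Lum signal and 23.7 and 16.9% of that of Dcn. In early adventitial fibroblasts at P7 it was read at 620.1 and 484.1 CPM, and at 1715.6 and 1481.4 CPM in adventitial fibroblasts at P21. Airway smooth muscle at P21 held more, 2027.0 and 2992.7 CPM. Adventitial fibroblasts therefore gave 90.7 and 89.2% of the Lum signal at P7 but only 70.2 and 39.5% at P21, when airway smooth muscle gave 29.4 and 54.2%.

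Bgn, the closest relative of decorin in this set, was the broadest member. Its lowest level in any sum outside striated muscle was 882 CPM, in P1 pericytes of the female, and it reached 6195.5 CPM in early adventitial fibroblasts of the hyperoxic female. Striated muscle cells of the P21 female held 22.37 CPM. After division by exon length, which allows genes to be compared, Bgn was the leading member in 35 of the 64 sums, Aspn in 16, Ogn in 9, Dcn in 3 and Lum in 1. With the longest transcript as the length in place of all exons, the leading member was the same in 47 of them.

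Aspn was the member of airway smooth muscle. At P7 it stood at 6450.3 and 8683.2 CPM in early airway smooth muscle, against 848.0 and 1070.9 CPM in myofibroblasts, the contractile cells of the forming alveolar walls, and 482.0 and 879.0 CPM in vascular smooth muscle. The last 2 ranges overlapped, and the airway range stood apart from both. Airway muscle gave 67.9 and 62.2% of the P7 Aspn signal from 12.4 and 11.2% of the cells. Per kilobase of exon it led every other member there, with 2740.2 and 3688.7 CPM per kilobase against 570.9 and 433.8 for Bgn.

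Ogn, also called mimecan, was shared by the fibroblast types. At E18.5 it was highest in early adventitial fibroblasts at 2645.0 and 2793.5 CPM, followed by fibroblast precursors at 921.2 and 841.4 CPM. By P21 the order had turned, with 2521.6 and 3089.1 CPM in alveolar fibroblasts and 1276.8 and 1499.8 CPM in adventitial ones. Pericytes at P21 held 6.71 and 4.67 CPM.

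Prelp, which anchors basement membranes to the matrix, was low before P21 and widespread at P21. Before P21 its highest sum was 237.8 CPM, in myofibroblasts of the hyperoxic male. At P21 it was read at 1872.4 and 1280.7 CPM in alveolar fibroblasts, 1130.8 and 619.6 CPM in pericytes and 898.6 and 526.2 CPM in airway smooth muscle. The pericyte range overlapped the airway range, and alveolar fibroblasts stood above both. The share of cells with a Prelp read, with all cells thinned to 100000 reads, was 93.2 and 70.2% in P21 alveolar fibroblasts and 11.4 and 11.6% in their early form at P7, and without thinning 93.4 and 72.5% against 14.2 and 16.3%.

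Fmod, which resembles lumican in its keratan sulfate chains, never passed 279.3 CPM, the level in P1 vascular smooth muscle of the female. It was not read in P21 cells labelled airway smooth muscle or in P21 pericytes of either mouse, where a count of 0 allows at most 0.0668 and 0.0587 CPM. Podn, a less studied member of the family, was highest in P21 adventitial fibroblasts at 650.1 and 390.4 CPM. In pericytes it stayed at or below 0.154 CPM in all 8 mice with enough of these cells. Vcan ranged from 92.84 to 510.2 CPM in early alveolar fibroblasts from E18.5 to P7, and in P21 airway smooth muscle it was 11.96 and 30.77 CPM. Spread over its long exons, Vcan was minor beside Bgn: in P7 early alveolar fibroblasts it had 17.96 and 35.28 CPM per kilobase, and Bgn 366.7 and 229.2.

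**Figure D2:**
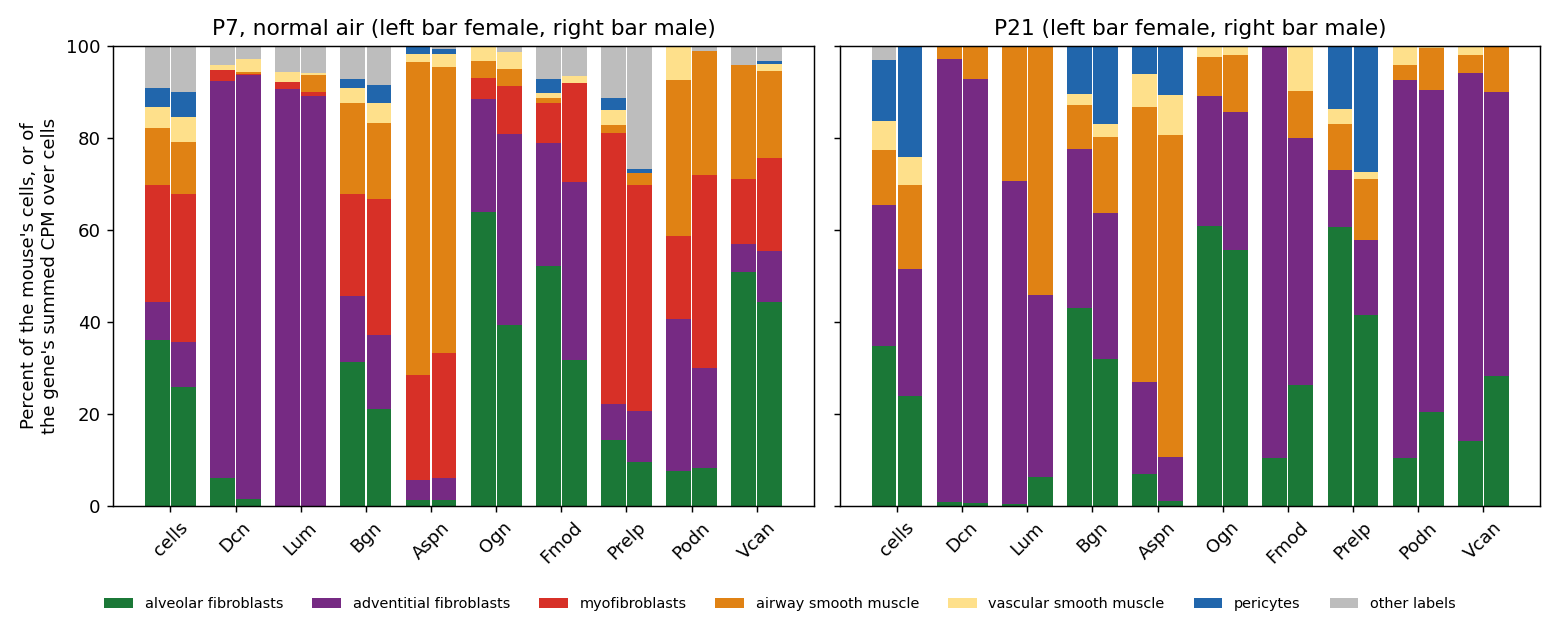
Share of each mouse's cells (first pair of bars) and of each gene's CPM summed over cells, in percent, by class of cell, for normal-air P7 and P21 mice (left bar female, right bar male). Adventitial fibroblasts give most Dcn at both ages, while at P21 airway smooth muscle gives 29.4 and 54.2% of Lum.

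Likeness of pattern was described by Pearson's correlation of log2(CPM + 1) over the 64 sums, which share mice and depth, so that no p is given. Dcn and Lum were each other's most similar gene (r = 0.890) among all genes with a mean of at least 5 CPM. Next to Lum, Dcn was most like Adam23 (0.769) and Col1a1 (0.766), and Lum was next most like Kctd12 (0.747) and Adam23 (0.741). Bgn was closest to Mmp14 (0.879), a membrane-bound matrix protease, and to Nucb1 (0.855) and Hexa (0.841). Ogn resembled Gsn (0.779), Apoe (0.765) and Bmp3 (0.758), and Vcan resembled Fzd3 (0.784), Robo2 (0.759) and Capn6 (0.756). Among the nearest to Podn were Cdk20 (0.739) and Gas7 (0.718), and the nearest to Aspn were Amotl1 (0.675), Pde1a (0.674) and Dst (0.663). Prelp was nearest to Reck (0.670), Timp3 (0.647) and Lgals9 (0.635), and Fmod to St3gal4 (0.654), Pdlim2 (0.650) and Vcam1 (0.642). Apart from the pair Dcn and Lum, the best likeness between any 2 members was 0.586, of Podn with Dcn.

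Most member changes with age that passed the test were in airway smooth muscle between P7 and P21. The early and later labels were joined, so values can differ from those of single labels. For Ogn at P21, the later label alone held 755.9 to 805.8 CPM, less than the joined values given further on. Dcn, Ogn and Prelp rose and Vcan fell, 4 of 9 members, against 1.13% of all 13496 genes tested there (edgeR's quasi-likelihood test, Benjamini-Hochberg adjusted p under 0.05). None of the other 5 passed: Lum and Aspn are described further on, Bgn and Podn had log2 changes of 0.08 and 0.57, and Fmod 6.62 ± 5.71 SE. The median of the 9 was 3.65 on the log2 scale against -0.090 for all genes tested, and 0.58 with the early label at P7 and the later label alone at P21, since the Fmod reads at P21 came from early-label cells of the male alone and its change turned to -8.52. Prelp went from 11.59 and 23.38 CPM to 868.5 and 515.8 CPM (log2 change 5.59 ± 0.58 SE, edgeR adjusted p = 0.00467). The 2 ages did not overlap.

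Vcan moved the other way, from 311.7 and 558.2 CPM at P7 to 12.62 and 28.61 CPM at P21 (log2 change -4.07 ± 0.54 SE, edgeR adjusted p = 0.012). Thinned to equal depth, 73.3 and 71.4% of early airway muscle cells had a Vcan read at P7, and 15.5 and 11.1% of airway muscle cells at P21 (unthinned 82.7 and 81.3% against 25.9 and 14.6%). Adamts1, a protease that cleaves versican, rose over the same interval from 481.3 and 273.1 CPM to 2036.1 and 1833.1 CPM (log2 change 2.74 ± 0.37 SE, edgeR adjusted p = 0.0129). It was 1 of 5 versican-cleaving proteases tested, and the only one past the threshold.

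Dcn was at 0.233 and 7.35 CPM in airway muscle at P7 and at 901.6 and 1192.1 CPM at P21 (log2 change 9.05 ± 1.30 SE, edgeR adjusted p = 0.014). Ogn went from 132.6 and 107.6 to 1063.3 and 1205.4 CPM (log2 change 3.65 ± 0.51 SE, edgeR adjusted p = 0.0133). Lum had a larger fitted change but an uneven start, 0 and 11.76 CPM at P7 against 1912.4 and 2782.5 CPM at P21, and did not pass (log2 change 10.92 ± 2.98 SE, edgeR adjusted p = 0.192). Aspn was lower at P21 in both mice, 1796.0 and 2944.1 CPM against 6450.3 and 8683.2 CPM, and did not pass either (log2 change -1.34 ± 0.35 SE, edgeR adjusted p = 0.152). Leaving out a P7 mouse ended the call of Ogn (edgeR adjusted p = 0.0867 without the female and 0.0526 without the male) and, for the male, that of Vcan (0.0526). With limma over all classes Dcn (adjusted p = 0.776) and Vcan (0.227) did not pass, and with only the 4 mice compared edgeR did not call Dcn (0.058). In the males alone, which shared a run at both ages, the 4 changes had the same directions.

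**Figure D3:**
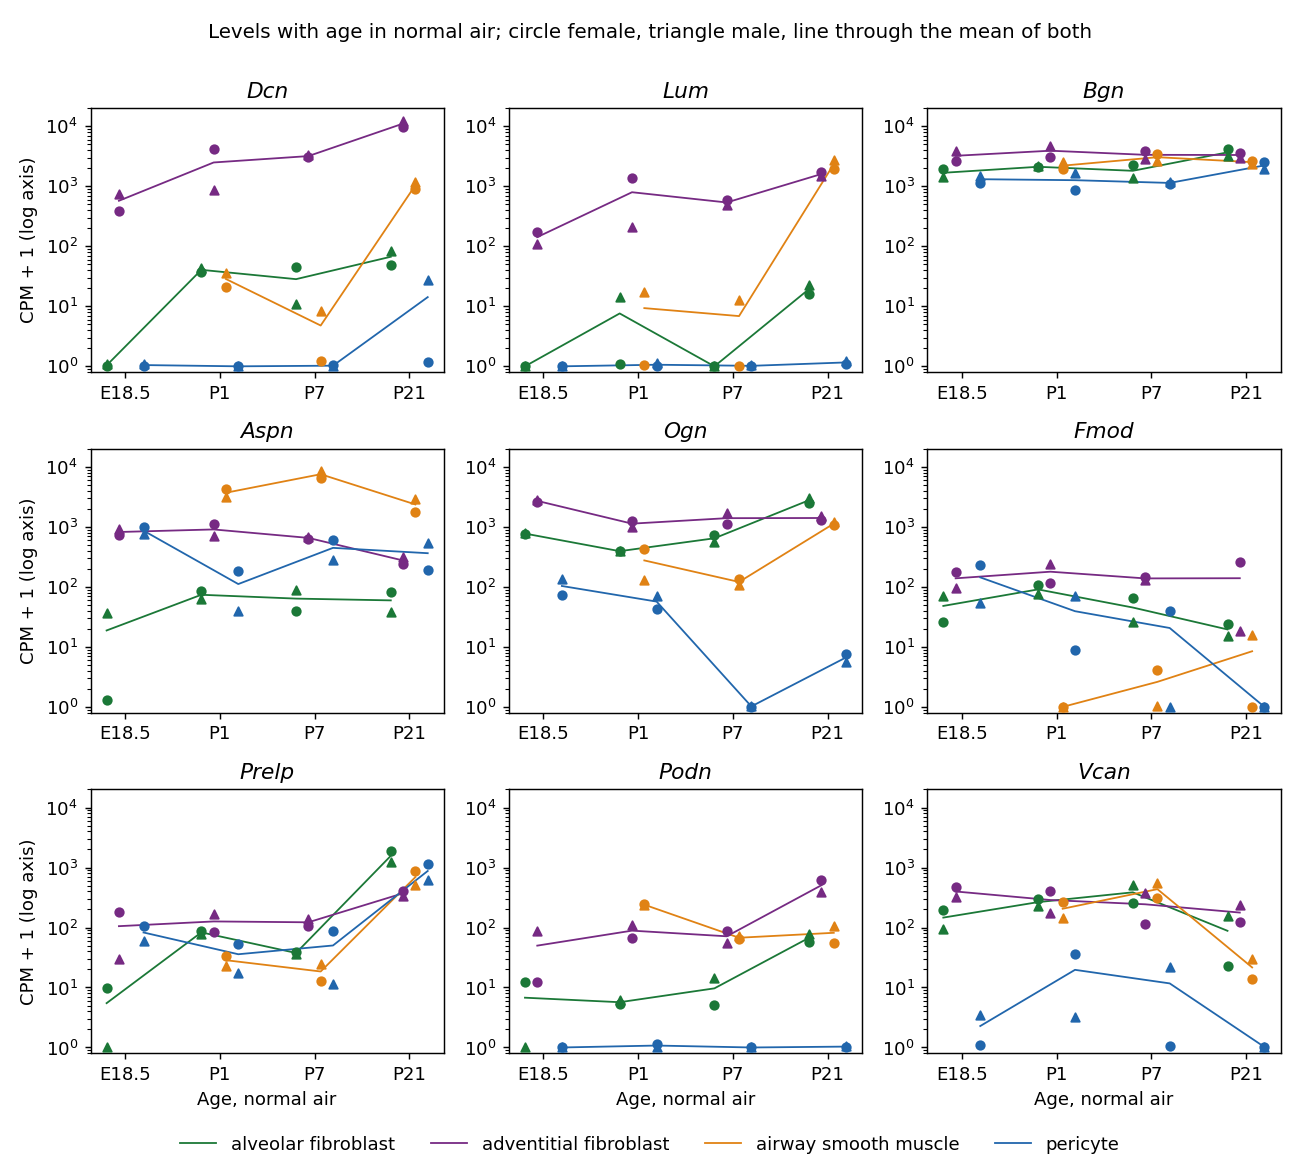
Level of each gene (CPM + 1, log axis) against age in normal air in 4 joined classes of cell, with the female as a circle, the male as a triangle and the line through their mean. In airway smooth muscle (orange) Dcn, Ogn and Prelp stand higher and Vcan lower at P21 than at P7, with no overlap between the ages.

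The labels were checked in the airway muscle cells themselves. In the P21 female and male, 56 of 58 and 53 of 55 cells held Hhip, a marker of this label, at or above 10 CPM. Its means over cells were 5249.3 and 5741.1 CPM, against 1114.1 and 1451.1 CPM in early airway smooth muscle at P7. Acta2, the smooth muscle actin, averaged 1585.6 and 2267.7 CPM, against 9743.7 and 12206.3 CPM in early airway smooth muscle at P7. Myh11 and Actg2, contractile markers of the label, were found in fewer cells. Myh11 was at or above 10 CPM in 20 of 58 and 14 of 55 cells at P21 against 71 of 75 and 61 of 64 at P7, and Actg2 in 16 of 58 and 16 of 55 against 74 of 75 and 63 of 64. The summed level of Hhip, Acta2, Myh11 and Actg2 ranged from 6885.8 to 7783.3 CPM in the later label at P21 and from 14719.9 to 18474.9 CPM in the early label at P7. Within this sum Hhip was higher at P21, while Acta2, Myh11 and Actg2 were lower. The ages compared thus differed in these markers too, and their part in the member changes was not tested. At the same limit Dcn was present in 30 of 58 and 25 of 55 cells, and Lum in 38 of 58 and 38 of 55. Acta2 averaged 1007.7 and 1514.8 CPM in the cells with Dcn, and 2204.9 and 2895.1 CPM in the others. Myh11 was also lower in the cells with Dcn in both mice, while for Hhip and Actg2 the 2 mice differed in direction. These differences were not tested.

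The adventitial markers Pi16, Serpinf1 and Dpep1 were below 10 CPM in every airway muscle cell of both P21 mice. A count of 0 allows a share of up to 5.17% of 58 cells and 5.46% of 55 cells. In P21 adventitial fibroblasts, Serpinf1 reached that level in 146 of 153 and 82 of 85 cells. The fourth adventitial marker, Col14a1, was at or above it in 29 of 58 and 26 of 55 airway muscle cells. The summed level of the 4 markers was 144.4 and 274.8 CPM in airway muscle at P21, 273.4 and 211.7 CPM in its early form at P7, and 6007.5 and 7640.1 CPM in P21 adventitial fibroblasts.

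The joined P21 class also held a few cells with the early label, 4 in the female and 2 in the male. In them Dcn was at 0 CPM, Ogn averaged 5577.5 and 6673.7 CPM and Acta2 22162.4 and 20660.4 CPM. With the early label at P7 and the later label alone at P21, an alternative chosen after seeing the data, the same 4 genes passed, Dcn at an edgeR adjusted p of 0.0118, Ogn at 0.0177, Prelp at 0.00416 and Vcan at 0.0113.

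**Figure D4:**
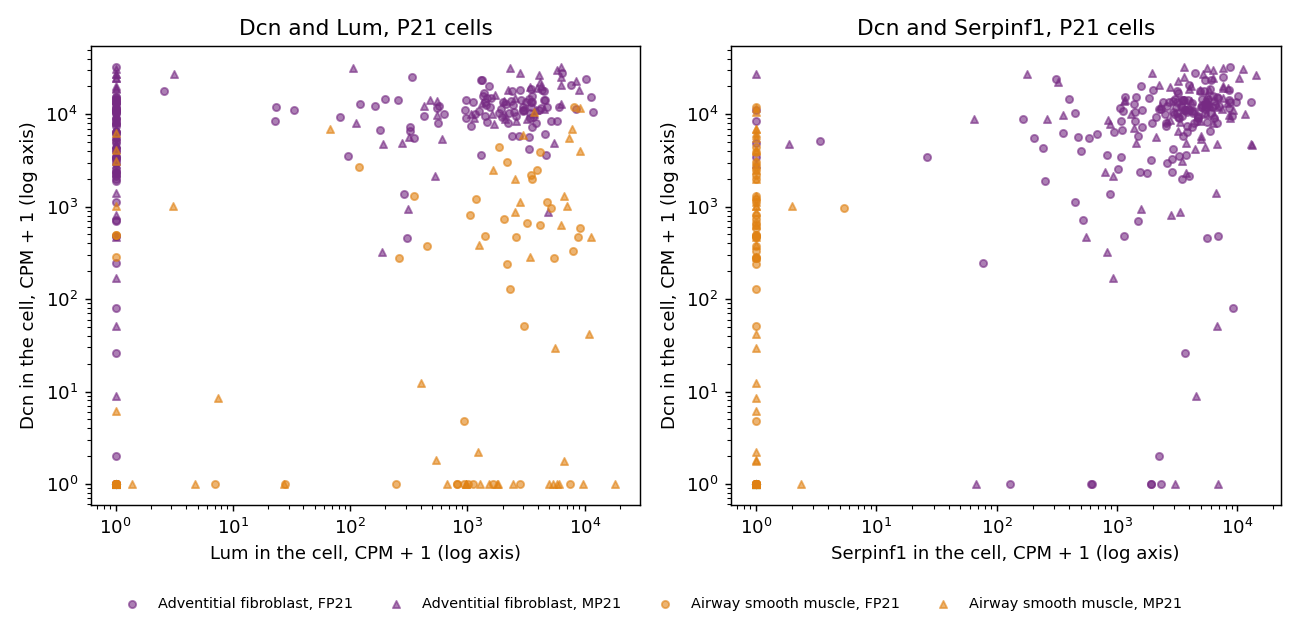
Dcn against Lum (left) and against Serpinf1 (right) in single P21 cells labelled adventitial fibroblast (purple) or airway smooth muscle (orange), as CPM + 1 on log axes, female circles and male triangles. Airway muscle cells reach high Dcn and Lum while their Serpinf1 stays below 10 CPM. Another adventitial marker, Col14a1, which is not drawn, was at or above 10 CPM in 29 of 58 and 26 of 55 of them.

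In the other classes few members passed. In alveolar fibroblasts between E18.5 and P1, Dcn alone of 9 rose, where 6.16% of 15670 genes did so or fell, and the median of all genes was itself 1.355 on the log2 scale. Fibroblast precursors, the largest label at E18.5 with 425 and 335 cells and not part of this class, held 26.23 to 28.51 CPM of Dcn. In the class itself Dcn had 1 read in all 38 E18.5 cells of both mice, and 36.75 and 42.49 CPM at P1 (ratio 674.7, 95% counting interval 121.1 to 26651.2, edgeR adjusted p = 0.0291). This call was lost when any P1, P7 or P21 mouse was left out, with edgeR adjusted p from 0.0578 to 0.157, and with limma over all classes (0.548) or only the 4 mice compared (0.572).

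Between P7 and P21, 0 of 9 members passed edgeR's test in alveolar fibroblasts (0.0702% of all genes). An unadjusted p under 0.05 was found for 4 members and for 1118 of 15670 genes. DESeq2 and limma over all classes each called Lum, Bgn, Ogn and Prelp, and limma also Podn and Vcan. Over all genes the 2 tools called 1071 and 1388. Lum was at 0 CPM in both P7 mice, and in the P21 male its reads came almost wholly from a single cell. The levels of Prelp did not overlap between the ages, with 38.76 and 34.51 CPM at P7 and 1873.7 and 1257.4 CPM at P21 (edgeR adjusted p = 0.552). With only the 4 mice compared, edgeR called it (adjusted p = 0.00118), as it did without the E18.5 female (0.00266) or male (0.00249). Those of Ogn were 723.0 and 569.2 CPM and then 2520.6 and 3067.2 CPM (edgeR adjusted p = 0.0853, called in 8 of 21 alternatives). Bgn stood at 2236.7 and 1397.9 CPM and then 4181.1 and 3199.0 CPM (edgeR adjusted p = 0.284).

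In adventitial fibroblasts 0 of 9 passed edgeR's test between P7 and P21 (0.124% of all genes). Under an unadjusted p of 0.05 were 5 members and 1554 of 15289 genes. DESeq2 called Dcn (adjusted p = 0.0181), Lum (0.0311) and Podn (0.000824), and limma over all classes called these and Prelp. Dcn was at 3084.9 and 3308.3 CPM and then at 9881.0 and 12392.4 CPM (log2 change 1.99 ± 0.60 SE, edgeR adjusted p = 0.336). Podn was at 87.29 and 53.49 CPM and then at 622.5 and 389.8 CPM (edgeR adjusted p = 0.195, or 0.0316 with only the 4 mice compared, 0.024 without the E18.5 female and 0.0255 without the E18.5 male). Between E18.5 and P1, where 0.17% of all genes and 0 of 9 members passed with edgeR and DESeq2 called Dcn, Lum and Ogn, the 2 P1 mice differed in the leading genes of this class. Dcn was 4124.4 CPM in the female and 879.6 CPM in the male, and Lum 1388.9 and 206.7 CPM. Without the P1 male edgeR called Dcn (adjusted p = 0.0428) and Lum (0.0136). The cartilage markers Acan, Col2a1, Col9a1 and Matn1 summed to 3.11 CPM in the P1 female and 357.6 CPM in the male, and their part in that difference was not tested.

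Pericytes had 6 members in the tests, since Dcn, Lum and Podn did not pass the filter on low counts. Of these 6, 0 passed edgeR's test between E18.5 and P1 (0.042% of all genes) or between P7 and P21 (0.0504%). Under an unadjusted p of 0.05 were 1 and 4 members, and 642 and 554 of 11894 genes. DESeq2 called Aspn in the first interval (adjusted p = 0.00369), and Prelp (5.19e-07) and Ogn (0.000252) in the second. Prelp was at 87.79 and 10.56 CPM at P7 and 1130.8 and 619.6 CPM at P21 (log2 change 4.66 ± 0.81 SE, edgeR adjusted p = 0.104), with no overlap. It was called in 8 of 18 alternatives, among them edgeR without the E18.5 male (adjusted p = 0.0416), the P1 female (0.0168), the P1 male (0.0219) or the P7 female (0.0423). Vascular smooth muscle had 0 of 9 past edgeR's threshold between P7 and P21 (0.0886% of all genes). Under an unadjusted p of 0.05 were 895 of 12417 genes and 1 member. That was Prelp, which was at 61.87 and 0.890 CPM and then at 569.0 and 183.0 CPM (edgeR adjusted p = 0.543, or 0.0115 with only the 4 mice compared, and DESeq2 adjusted p = 0.00105).

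From P1 to P7 no gene at all passed with edgeR, 0% in each of alveolar fibroblasts, adventitial fibroblasts, airway smooth muscle, pericytes, vascular smooth muscle and myofibroblasts. At an unadjusted p under 0.05 there were 370 to 1072 of 11894 to 15670 genes per class, 0 to 3 of them members. DESeq2 called 216 to 693 genes. Of the members with an unadjusted p under 0.05 by edgeR, it called Lum in alveolar fibroblasts, and Dcn and Podn in airway smooth muscle. It also called Ogn in pericytes and Fmod in vascular smooth muscle (DESeq2 adjusted p from 1.12e-08 to 0.0499). Of these members limma over all classes called Aspn in airway smooth muscle (adjusted p = 2.14e-05). Podn in airway smooth muscle showed the most even difference of the members, 242.2 and 235.7 CPM at P1 against 62.42 and 70.62 CPM at P7 (edgeR adjusted p = 0.625). Over all 14 age comparisons, edgeR called 0 to 966 of 11894 to 15670 genes each. DESeq2 called 216 to 3624 and limma over all classes 82 to 3664. Of 117 pairs of member and class tested, 5 passed with edgeR, while DESeq2 called 30 and limma over all classes 20. Without the E18.5 female edgeR called 10, without the E18.5 male 11 and without the P1 male 10.

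Whether the change from P7 to P21 differed between adventitial and alveolar fibroblasts of the same mice was tested by an interaction term, blocking on the mouse. Among 14980 genes 0.0668% passed, and Prelp and Lum were 2 of them. The log2 change of Prelp was smaller in adventitial fibroblasts (difference -3.89 ± 0.34 SE, edgeR adjusted p = 0.0283). Adventitial Prelp went from 104.9 and 137.4 CPM to 409.4 and 333.2 CPM, against the alveolar values given above. Leaving out any of the 4 mice ended this call, with edgeR adjusted p from 0.0546 to 0.126.

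The Lum interaction (-12.55 ± 0.69 SE, edgeR adjusted p = 0.0226) rested on an alveolar start of 0 reads and, in the P21 male, almost wholly on a single cell. Alveolar Lum was 0 in both P7 mice and 15.23 and 21.73 CPM at P21, so its fitted size is no measure of the change. In the P21 male, 1317 of the alveolar Lum reads came from the 5 cells with the early label, 20% of which had a read, and the later label alone held 0.0336 CPM. With each label at its own ages, the Lum interaction was -8.99 (edgeR adjusted p = 0.912) and that of Prelp -4.01 (0.0271).

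Under hyperoxia at P7, no gene passed the edgeR test in any of the 5 classes compared, so percentages called were 0% in early alveolar fibroblasts, 0% in early adventitial fibroblasts, 0% in myofibroblasts, 0% in early airway smooth muscle and 0% in vascular smooth muscle. Between 319 and 1233 of the 12417 to 15446 genes tested in a class had an unadjusted p under 0.05. So did 8 of the 45 pairs of member and class. Without the P1 female, which enters the estimate of spread, edgeR called 3 such pairs, and without the P1 male 4. DESeq2 called 196 to 488 genes a class, 4 of them pairs with a member, and limma over all classes called 46 to 747 genes, 2 of them such pairs. The member values are therefore given side by side. Median genes per cell were higher in both hyperoxia mice than in both normal-air mice in all 5 classes, for example 5111 and 6609 against 2864 and 2834 in myofibroblasts, and 4472 and 5300 against 2233 and 2114 after thinning to 100000 reads. The part of this difference, or of the separate runs, in the values that follow was not tested.

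Bgn was higher in both hyperoxia mice than in both normal-air mice in all 5 classes, the only member of which this held. Over all genes it held for 2.18% of 11464 genes tested in all 5 classes. In myofibroblasts Bgn was at 1910.4 and 1553.0 CPM in normal air and 3504.4 and 3509.4 CPM in hyperoxia (log2 change 0.98 ± 0.34 SE, edgeR adjusted p = 0.745). In early alveolar fibroblasts it was 2236.7 and 1397.9 against 2882.8 and 3643.8 CPM, and in early adventitial fibroblasts 3990.9 and 2871.9 against 6195.5 and 5919.2 CPM. The log2 change lay between 0.45 in vascular smooth muscle and 0.98 in myofibroblasts, while the median of all genes lay between -0.027 and 0.092. Of these 5 differences, limma over all classes called that in early alveolar fibroblasts (adjusted p = 0.000161).

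Aspn in myofibroblasts was the member with the lowest unadjusted p. It stood at 848.0 and 1070.9 CPM in normal air and 255.8 and 81.2 CPM in hyperoxia (log2 change -2.60 ± 0.60 SE, edgeR adjusted p = 0.497). Thinned to equal depth, 36.8 and 36.5% of myofibroblasts had an Aspn read in normal air and 20.7 and 15.6% in hyperoxia, and unthinned 36.8 and 39.1% against 22.4 and 15.6%. DESeq2 called this difference (adjusted p = 0.000113), and so did edgeR with only the 4 mice compared (0.0434). Ogn in the same cells went from 87.2 and 63.42 to 24.48 and 17.17 CPM (edgeR adjusted p = 0.693). The 4 adventitial markers summed to 67.67 to 85.69 CPM in normal-air myofibroblasts and 9.39 to 13.87 CPM in hyperoxic ones, and their part was not tested.

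Podn in early adventitial fibroblasts was at 91.49 and 51.09 CPM in normal air and 263.5 and 315.2 CPM in hyperoxia (log2 change 1.69 ± 0.72 SE, edgeR adjusted p = 0.593). The share of cells with a Podn read, thinned, was 36.7 and 24.5% against 64.2 and 68.1%, and unthinned 40.8 and 23.6% against 66.1 and 71.6%. Adventitial fibroblasts gave 73.3 and 72.2% of the Podn signal in the hyperoxia mice, against 32.9 and 21.7% in the P7 mice in normal air. In the same cells the mesothelial markers Msln, Upk3b, Wt1 and Lrrn4 summed to 575.9 and 654.1 CPM in hyperoxia and 217.9 and 0.0652 CPM in normal air, and their part was not tested.

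Dcn and Lum were low in most of the remaining classes, so their differences there rest on few cells. Dcn in early airway smooth muscle was 0.233 and 7.35 CPM in normal air and 58.61 and 51.64 CPM in hyperoxia (log2 change 4.85 ± 1.46 SE, edgeR adjusted p = 1, DESeq2 adjusted p = 0.000969), read in 1.33 and 4.76% against 14.0 and 9.52% of thinned cells (2.67 and 4.69% against 13.8 and 9.09% unthinned). In early adventitial fibroblasts, its main source, Dcn was 3102.1 and 3329.8 against 4842.8 and 3424.6 CPM. Lum there was 620.1 and 484.1 against 1158.3 and 875.4 CPM. Both hyperoxia mice stood above both normal-air mice for each gene, but the share of all genes so separated in this class was not counted. Neither gene passed edgeR's test. The label of male hyperoxic fibroblasts, found only in the hyperoxic male with 55 cells, held 2324.7 CPM of Bgn, 492.0 CPM of Ogn and 167.5 CPM of Dcn.

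**Figure D5:**
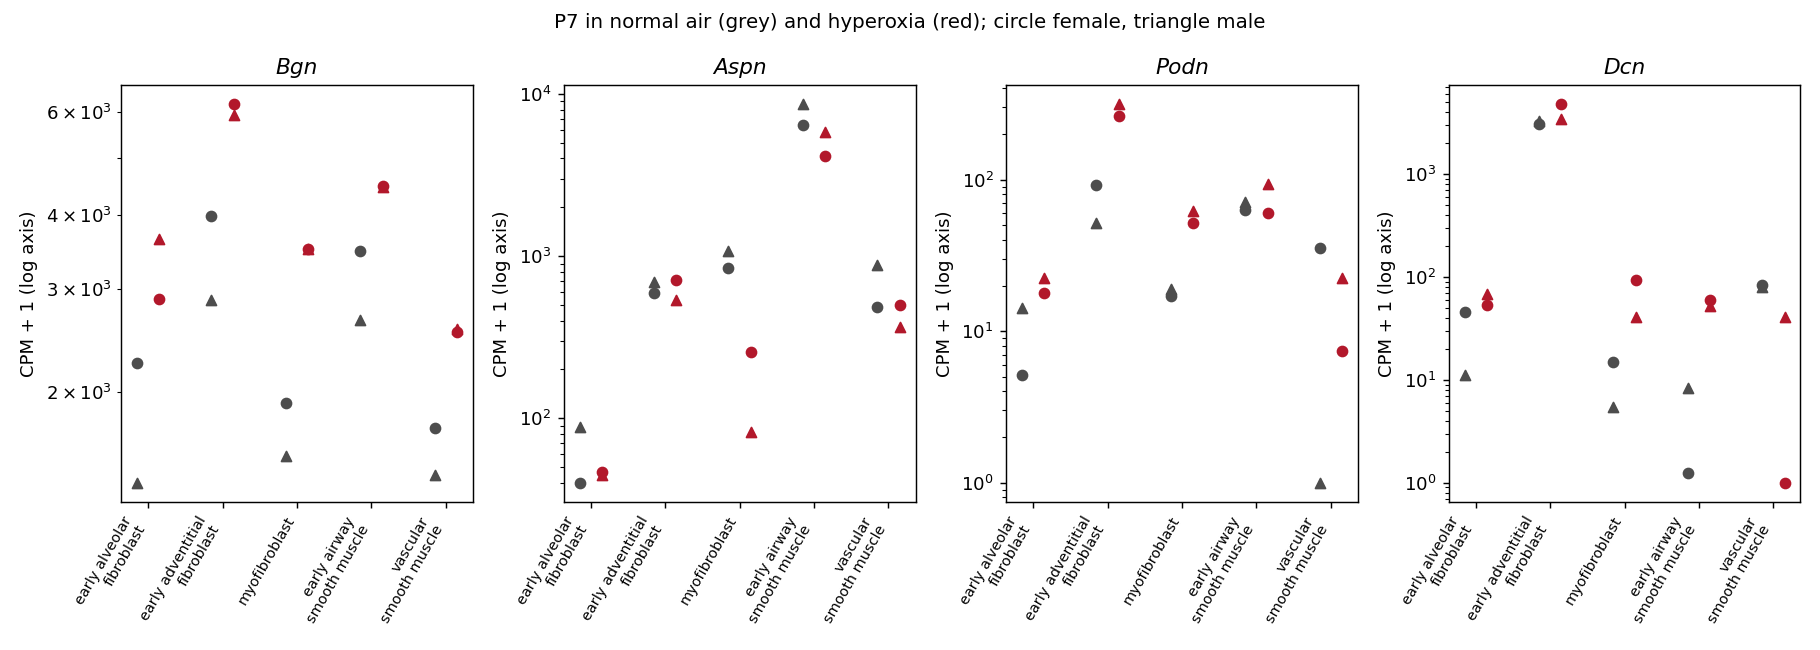
Bgn, Aspn, Podn and Dcn (CPM + 1, log axis) in 5 classes of cell at P7 in normal air (grey) and hyperoxia (red), female as circle and male as triangle. For Bgn the red points lie above the grey ones in every class, and for Aspn in myofibroblasts below them, none of which passed edgeR's test.

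Differences of the hyperoxia effect between classes of the same mice were also tested with edgeR. Early adventitial against early alveolar fibroblasts gave 0% of 15582 genes, and myofibroblasts against early airway smooth muscle 0% of 14148 genes. At an unadjusted p under 0.05 there were 1054 and 811 genes, with 3 members in each, and DESeq2 called 566 and 235 genes. Over both tests edgeR called 2 members without the hyperoxic female and 3 without the P7 female in normal air. The lowest member p was that of Ogn in myofibroblasts against airway muscle (log2 difference -2.88 ± 0.42 SE, edgeR adjusted p = 0.605), which DESeq2 called (adjusted p = 1.87e-06).

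Genes that build or cut the proteoglycans were read from 6 further lists. In airway smooth muscle between P7 and P21, 0 of 20 tested genes of chondroitin and dermatan sulfate synthesis passed with edgeR, 0 of 5 of keratan sulfate synthesis, 0 of 6 other leucine-rich repeat genes and 0 of 5 fibrillar collagens. The medians were -0.59, 0.03, -0.67 and -0.19 on the log2 scale. In alveolar fibroblasts between E18.5 and P1, the leucine-rich repeat gene Ecm2 rose from 0 CPM in both mice to 12.65 and 15.45 CPM (edgeR adjusted p = 0.0316). Xylt2, which starts the sugar chain, rose from 0 in both to 51.04 and 27.48 CPM (edgeR adjusted p = 0.0303), and Csgalnact2, which adds the first sugar of the chondroitin repeat, from 0 and 0.147 to 23.66 and 11.8 CPM (edgeR adjusted p = 0.0351). As for Dcn, the start was 38 cells. These were 1 of 6 other leucine-rich repeat genes and 2 of 20 synthesis genes tested, where 6.16% of all genes passed. The median of the synthesis genes was 1.58 on the log2 scale, against 1.355 for all genes. Under hyperoxia 0 genes of these lists passed in any of the 5 classes.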

How the data were processed

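The deposited table holds raw read counts per gene and cell, which are unnormalized whole numbers as the authors left them, for 18072 genes and 5480 cells. Per the labels' protocols, libraries were made in plates with Tn5 transposase and no RNA extraction. The submitters' processing notes name STAR 2.5.2b, HTSeq 0.10 and the build GRCh38, which is a human build name, so no coordinates of counted reads are given. Strand setting, annotation and doublet handling are not given in the sources used here. The authors' labels were used as deposited. Sort names in the titles give 5409 mesenchymal, 69 CD31 and 2 CD45 cells, and no 2 cells had identical counts.

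The mouse was the replicate. For each class, the counts of a mouse with at least 10 cells were added up, and the sums went into edgeR 4.0.16 (R 4.3.3) with TMM normalization, filterByExpr and a two-sided quasi-likelihood test with terms for group and sex, Benjamini-Hochberg adjustment over all genes tested, threshold 0.05. All groups entered each of these fits, since 2 mice against 2 leave too little to estimate the spread between mice. The alternative with only the 4 mice compared has this limit. Interactions used the 4 mice concerned, with the mouse as a block. The code was tested on simulated data. Alternatives were DESeq2 1.42.0, limma 3.58.1 over all classes, other size factors, filters, cell minimums and mice left out. Each mouse is a single animal of its sex and group. Thinning to 100000 reads left out 168 cells. Intervals (95%) and limits from 3 counts cover counting error only. Gene lengths came from GENCODE M21. All 9 members were named, up to 2 genes per direction and list with the largest change past the threshold, and per member the 3 genes most like it, 1 of which is not reported here. The members, lists and tests were chosen with earlier results of these data known.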

Additional observations from a re-analysis of the deposited data

Results flagged for a closer look

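The change from P7 to P21 differed between adventitial and alveolar fibroblasts of the same mice for 2 members by edgeR's test of the interaction. For Lum the log2 difference was -12.55 (edgeR adjusted p = 0.0226, and 0.912 with each label at its own ages). Without the P7 male it was -12.71 and no longer passed. For Prelp the log2 difference was -3.89 (edgeR adjusted p = 0.0283, and 0.0271 with each label at its own ages). Leaving out any of the mice compared ended the Prelp call.

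Under hyperoxia, Dcn lay on opposite sides of its normal-air values in different classes, and this difference was not tested. The share of all genes whose 2 hyperoxia mice did not overlap the 2 normal-air mice was not counted class by class. The mean of Dcn in the 2 hyperoxia mice was 4133.7 CPM in early adventitial fibroblasts, 59.68 CPM in early alveolar fibroblasts, 65.79 CPM in myofibroblasts and 55.12 CPM in early airway smooth muscle. Normal-air means were 3216.0, 27.4, 9.197 and 3.789 CPM in that order, and both hyperoxia mice stood above both normal-air mice in each. In vascular smooth muscle the mean was 19.88 CPM, with both hyperoxia mice below both normal-air mice. The values there were 0 and 39.75 CPM, from 22 cells of each hyperoxia mouse, against 78.87 to 82.18 CPM in normal air. Ogn likewise had both hyperoxia mice above in early alveolar fibroblasts (mean 783.8 CPM) and both below in myofibroblasts (mean 20.83 CPM), and that difference was not tested either.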

How the results depend on the processing

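Each group had 2 mice. Among 45 hyperoxia pairs of member and class, 0 passed with edgeR, 4 with DESeq2, 2 with limma over all classes, 3 with only the 4 mice compared, and 0 to 4 with 1 mouse left out. Across ages 5 passed, against 30 with DESeq2, 20 with limma over all classes, 11 with each cell weighted equally, 9 without a filter, 9 with at least 20 cells (12 of 14 comparisons could be fitted) and 4 to 11 with 1 mouse left out. Of the interactions with hyperoxia 0 passed, against 4 with DESeq2 and 0 to 3 with 1 mouse left out. Of those from P7 to P21, 2 passed, 1 with each label at its own ages, an alternative chosen after seeing the data, and 0 to 1 with 1 mouse left out. Among all genes, too, DESeq2 and limma over all classes called more than edgeR in each comparison they were run on. The cause of these differences was not tested. Fmod in pericytes from P7 to P21 had a log2 change of -11.28, -13.31 without the P7 male and 0.20 without the P7 female, the only mouse of the 4 with Fmod reads in these cells. Prelp in airway smooth muscle passed in all 19 alternatives (edgeR, DESeq2 or limma adjusted p at most 0.0296), and Dcn, Ogn and Vcan in 17 each. No paired analysis was possible because the mice of different groups share no replicate numbers.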
